A study of Mus musculus with 16 samples.

Results

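The distal intronic OCT4 peaks are 7853 of the 26704 OCT4-bound regions in a merged peak list from mouse embryonic stem (ES) cells, or 29.4% of the list. A peak was taken when its midpoint lay more than 1 kb from every annotated transcript start, inside the body of a protein-coding gene but in no exon, and when less than 50% of its bases were repeat-masked. The choice used position and repeat content only, and the list gives nothing but the chromosome, start and end of each peak. ChIP-seq, which sequences the DNA precipitated with an antibody, was performed for OCT4 in 2TS22C cells, an ES cell line in which a transgene that doxycycline shuts off is the only active source of SOX2. SOX2 ON cells were left untreated and SOX2 OFF cells received doxycycline at 1 µg/ml for 26 h, with 2 replicates each, and all 4 libraries came from cells grown in serum with LIF and the kinase inhibitors CHIR99021 and PD184352. This is 1 engineered cell line, and endogenous SOX2 is inactive in the untreated cells too. Which of the 4 libraries entered the merge is not given in the sources used here, so no comparison between SOX2 ON and SOX2 OFF, no peak height and no depth stands behind any value below. The list holds no expression values, so the ES cell label could not be checked against marker genes. Peaks are not biological replicates, and the tests describe how this list is distributed over the genome. Confidence intervals (CI) are 95% intervals and cover counting error only.

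OCT4 is a POU-family transcription factor that recognises an octamer sequence, and in ES cells it often binds together with SOX2 at a composite site in which the octamer is followed directly by a SOX element. Binding of this kind is found mostly at enhancers, and many enhancers lie in introns, either of the gene they act on or of another gene. KLF-family factors, ESRRB, STAT3 and the WNT effectors of the TCF family are further members of the network that maintains the undifferentiated state.

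The composite site used here is ATTTGCAT followed directly by AACAATG, searched on both strands of the central 200 bp. The members that came closest to it show what the site looks like in introns. They were the 8 with the fewest mismatches over the 15 positions, nearest to the midpoint where tied. The 15 positions are in capitals, with 10 bases to each side, written 5′ to 3′ along the strand of the match in GRCm38 (mm10).
Nhsl2, no mismatch: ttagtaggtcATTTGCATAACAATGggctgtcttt
Galnt17, no mismatch: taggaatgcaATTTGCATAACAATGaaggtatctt
Ebf1, no mismatch: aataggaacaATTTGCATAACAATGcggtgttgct
Arhgef10l, no mismatch: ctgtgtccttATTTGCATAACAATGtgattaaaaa
Prep, 1 mismatch: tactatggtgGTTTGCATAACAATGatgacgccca
Gucy2g, 1 mismatch: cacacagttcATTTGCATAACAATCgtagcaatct
Meig1, 1 mismatch: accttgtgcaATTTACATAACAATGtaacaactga
Zer1, 1 mismatch: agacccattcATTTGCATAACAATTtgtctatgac
The peaks themselves span chrX:101906114-101906396 in intron 1 of Nhsl2, chr5:131177115-131177647 in intron 1 of Galnt17 (a glycosyltransferase), chr11:44841663-44842063 in intron 6 of Ebf1 (a B cell transcription factor), and chr4:140566618-140566844 in intron 17 of Arhgef10l (a guanine nucleotide exchange factor). The next 4 span chr10:45121747-45122026 in intron 9 of Prep (prolyl endopeptidase), chr19:55226677-55227029 in intron 8 of Gucy2g (a guanylate cyclase), chr2:3420119-3420589 in intron 1 of Meig1 and chr2:30119714-30120037 in intron 1 of Zer1. The 4 matches without a mismatch lay 3.5 to 68.5 bp from the midpoint, the farthest in Arhgef10l. The other 4 were chosen among ties for nearness to the midpoint, so their positions are not informative. Ebf1 and Arhgef10l each hosted a further peak with 1 mismatch, so that 4 of the 20 members with at most 1 mismatch lay in these 2 genes. None of the 10699 flanking windows, which are intron windows of the same width 5 kb to either side of a member, came within 1 mismatch.

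Composite sites were far more frequent in the members than in the introns beside them. A site with at most 3 mismatches lay in the central 200 bp of 808 of 7853 members (10.3%, CI 9.64 to 11.0%) and of 107 of 10699 flanking windows (1.00%, CI 0.828 to 1.21%). The odds ratio was 11.4 (CI 9.26 to 13.9), with a two-sided Fisher's exact p adjusted over the 15 motifs tested (Benjamini-Hochberg) of 1.0e-193. In strata of GC content, which averaged 46.1% in members and 43.9% in flanking windows, the odds ratio was 13.4. Exact sites were rare: 4 members had no mismatch, 16 had 1, 129 had 2 and 659 had 3. With a weight matrix learned from the intergenic peaks and set to pass 1% of flanking windows, 17.9% of members held a site (CI 17.1 to 18.8%). Most members carried no composite site by either measure, and 66.3% carried no composite site, octamer or SOX core in the central 200 bp, against 90.8% of flanking windows.

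The single elements followed the same order. The octamer ATTTGCAT was present in 7.98% of members and 1.31% of flanking windows (odds ratio 6.54, CI 5.44 to 7.88, adjusted p = 4.0e-115, Fisher's exact test). The SOX core, CCATTGT or CCTTTGT, was present in 21.2% of members and 7.28% of flanking windows (odds ratio 3.43, CI 3.13 to 3.75, adjusted p = 7.4e-167, Fisher's exact test). These counts overlap with each other and with the composite, since an exact composite site contains the octamer.

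Recognition sequences of 7 other factors were also more frequent in the members, among them pluripotency factors such as KLF proteins and ESRRB and also AP-2 and TEAD, which are known from trophectoderm. The KLF sequence CCACACCC was found in 4.27% of members and 1.28% of flanking windows (odds ratio 3.44), and the ESRRB sequence CAAGGTCA in 4.21% and 1.44% (odds ratio 3.01). The ZIC sequence CCTGCTG was found in 10.5% and 5.38% (odds ratio 2.06), the TCF sequence ATCAAAG in 6.10% and 3.37% (odds ratio 1.86), the AP-2 sequence GCCNNNGGC in 6% and 3.64% (odds ratio 1.69), the STAT3 sequence TTCCNGGAA in 0.955% and 0.570% (odds ratio 1.68) and the TEAD sequence CATTCCA in 5.11% and 3.42% (odds ratio 1.52). The adjusted Fisher's exact p of these 7 was at most 0.00441. No difference passed the test for the OTX2 sequence TAATCCC (2.48% and 2.68%), the GATA sequence AGATAAG (3.25% and 2.96%), the E-box CACGTG (2.74% and 2.5%) or a CTCF core of CCA, any 2 bases, AG, any 2 bases and GGC (0.968% and 0.963%). Their odds ratios were 0.924 (CI 0.768 to 1.11), 1.1 (CI 0.930 to 1.30), 1.1 (CI 0.917 to 1.32) and 1.01 (CI 0.746 to 1.35). A palindromic OCT4 dimer site, ATGCAT written directly after itself, was found in 3 members and 1 flanking window, too few to compare. A match is a description of the letters and does not show that the factor was bound.

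**Figure D1:**
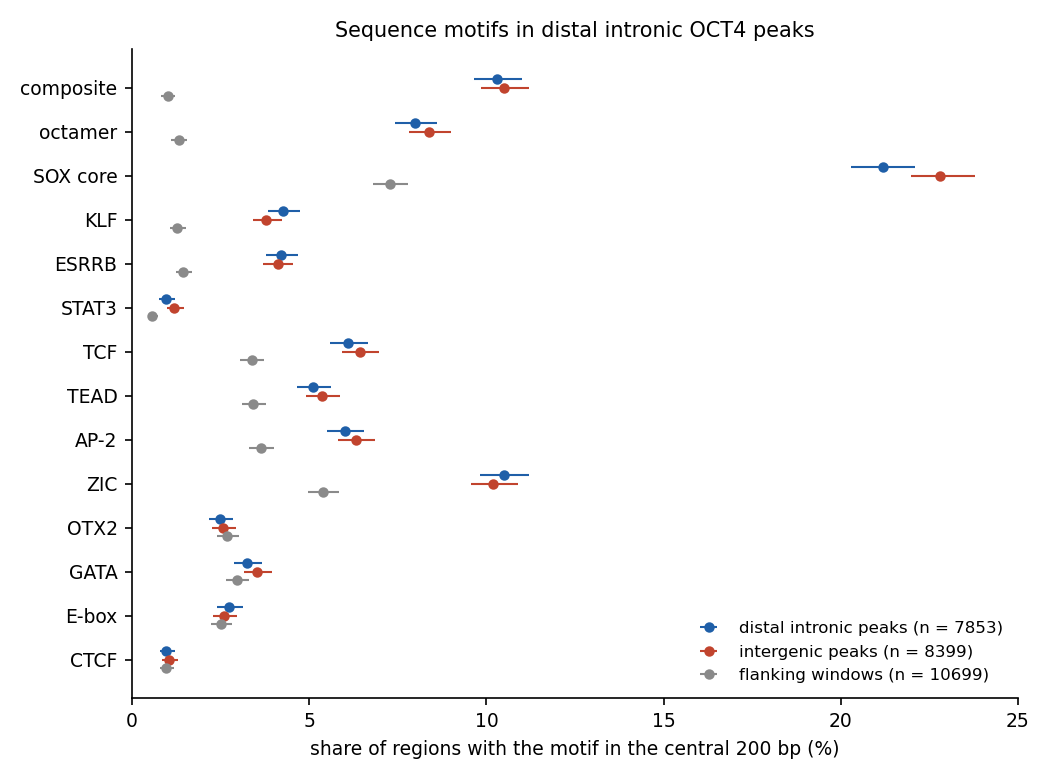
Share of regions (%) with each motif in the central 200 bp for distal intronic OCT4 peaks, intergenic OCT4 peaks and flanking intron windows. Points are shares and bars are 95% Wilson intervals. The composite lies near 10% in both peak classes and at 1.00% in flanking windows, while OTX2, GATA, E-box and CTCF sequences have similar shares in the members and their flanks.

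All 5 sequences profiled were more frequent at the peak midpoints than away from them, the composite site and the octamer most. In the central 50 bp, a composite site was centred in 2.1% of members per 25-bp bin, against 0.115% per bin at 300 to 500 bp from the midpoint, a ratio of 18.2. The same ratio was 8.4 for the octamer, 3.69 for the SOX core, 2.55 for ESRRB and 2.38 for KLF. The composite site was thus the most centred of these 5 sequences. The KLF and ESRRB sequences were spread over the middle of the peak, and their per-bin shares there were 0.548% and 0.509%.

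**Figure D2:**
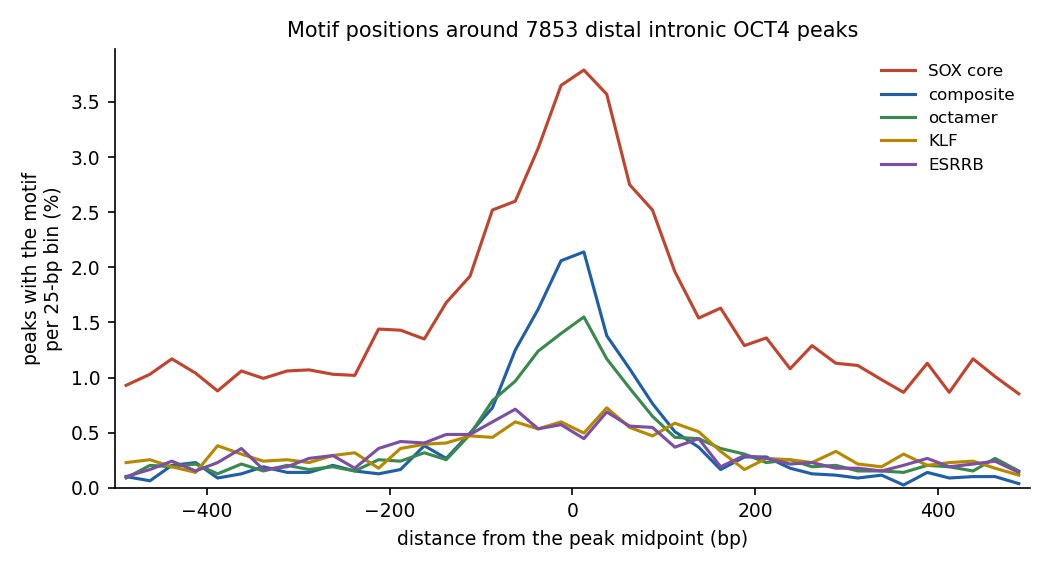
Share of distal intronic OCT4 peaks (%) with a motif centred in each 25-bp bin, against distance from the peak midpoint (bp). The composite and octamer lines rise from near 0.115% and 0.176% in the outer bins to 2.1% and 1.48% in the central 50 bp.

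Octamer-like and SOX-like elements preferred 1 arrangement. Each element was allowed 1 mismatch, AACAATG and AACAAAG both counted as the SOX element, and the elements could lie 0 to 12 bp apart in 4 orders and orientations. The SOX element directly after the octamer on the same strand was found in 177 members (2.25%) and in 7 flanking windows (0.0654%). In the other 51 arrangements the number of members ranged from 8 to 36, with a median of 21, and the number of flanking windows from 5 to 21, with a median of 11. A gap of 1 bp was found in 31 members and 9 flanking windows, and a gap of 3 bp in 34 members and 13 flanking windows. A gap of 2 bp was found in 8 members and 10 flanking windows.

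**Figure D3:**
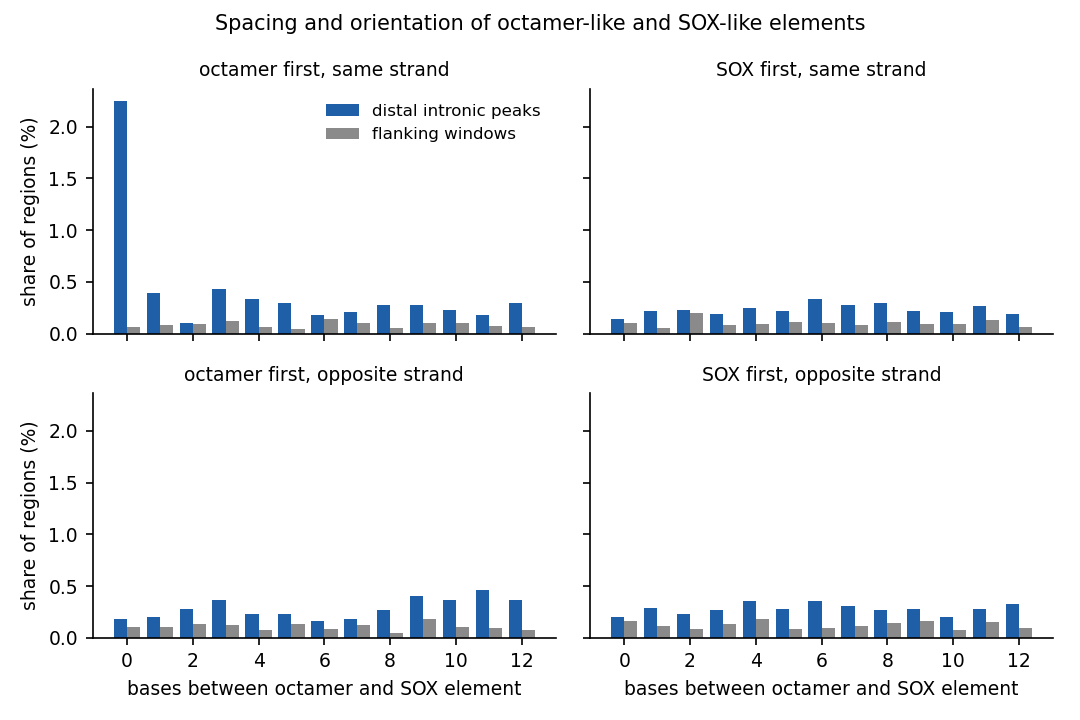
Share of regions (%) with an octamer-like and a SOX-like element at each spacing (bp), for the 4 orders and orientations, in distal intronic OCT4 peaks and flanking windows. Only the octamer followed directly by the SOX element on the same strand stands above 0.5% of members.

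Composite sites had no preferred strand relative to the host gene. They lay on the sense strand in 395 and on the antisense strand in 413 of 808 members (48.9% sense, CI 45.5 to 52.3%, exact binomial p = 0.55). Of the 8 sites printed above, 3 were on the sense strand of the host gene.

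The ZIC sequence was the only one of 11 other motifs whose share differed between members with and without a composite site, and it did not pass in GC strata. It was present in 7.18% of the 808 members with a composite site and in 10.9% of the 7045 without (odds ratio 0.634, p = 0.00923 adjusted over 11 motifs, Fisher's exact test). In GC strata the odds ratio was 0.698 with an adjusted p of 0.125 (Mantel-Haenszel test). For KLF, 2.85% and 4.43% of members held the sequence (adjusted p = 0.126, Fisher's exact test), and for ESRRB 2.72% and 4.39% (adjusted p = 0.126, Fisher's exact test), which did not pass.

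By these sequences the members were much closer to intergenic OCT4 peaks than to promoter peaks. The 8399 intergenic peaks, chosen with the same distance and repeat limits but outside every gene, held a composite site in 10.5% of cases (odds ratio for members 0.979, CI 0.885 to 1.08, adjusted p = 0.753, Fisher's exact test). The SOX core was found in 22.8% of intergenic peaks and 21.2% of members (odds ratio 0.909, CI 0.844 to 0.979, adjusted p = 0.177, Fisher's exact test). None of the 15 motifs passed the test between the 2 classes, and 1 had an unadjusted p under 0.05, the SOX core. With the weight matrix the share of intergenic peaks was 19.3%, against 17.9% of members (odds ratio 0.915, p = 0.0279, Fisher's exact test), but the matrix was learned on the intergenic peaks themselves. No repeat limit was set for the 4597 peaks within 1 kb of a transcript start. Their composite share was 5.2% (odds ratio for members 2.09, adjusted p = 1.2e-23, Fisher's exact test). The AP-2 sequence and the E-box were instead more frequent in those promoter peaks, at 11.6% and 5.33% (odds ratios for members 0.486 and 0.500), in sequence that was 52.9% GC on average. The odds ratios against promoter peaks were not computed in GC strata.

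Few 6-mers separated intronic from intergenic peaks in the central 200 bp, where 7 differed, while 120 differed over whole peaks. Of 2080 6-mers, each joined with its reverse complement, 5 (0.24% of those tested) were more frequent in the central 200 bp of members and 2 (0.0962%) were less frequent (Fisher's exact test, adjusted p under 0.05), while 265 had an unadjusted p under 0.05. The 5 were GCTTTA (11.7% of members and 9.74% of intergenic peaks), ACACTG (15.7% and 13.1%), CAAGTG (13.5% and 11.4%), CAGCAC (16.3% and 14%) and AGCACT (15.3% and 13.3%). Of the 2 that were less frequent, CCAAGA was found in 11.1% and 13.3%. The other, CGCGGA, was found in 0.369% and 0.893%, and is named although it fell below the 1% set for naming. Peak widths were also close, with a median of 349 bp in members (range 203 to 1949 bp) and 359 bp in intergenic peaks.

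The members were not spread evenly along introns. Of the 7853, 2261 (28.8%) lay in the first intron of the host gene's principal transcript, 4921 (62.7%) in a later intron and 671 (8.54%) in an intron of another transcript only. Density was counted per Mb of eligible sequence, that is intron sequence outside the 1 kb around starts that is not repeat-masked. It was 15.9 per Mb in first introns (CI 15.3 to 16.6), 13.5 in second introns, 12.4 in the third, 11.3 in the fourth and 10.9 in introns 5 and later (CI 10.5 to 11.4). First introns were 1.36 times as dense as all later introns (CI 1.29 to 1.43, exact conditional test p = 4.3e-32).

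This difference was seen up to 50 kb from the nearest protein-coding start. Between 1 and 2.5 kb the density was 20.3 per Mb in first and 13.5 in later introns, a ratio of 1.5 (CI 1.29 to 1.73). In the next 4 distance bins, up to 50 kb, the ratio ranged from 1.27 to 1.37, and the adjusted p over the 7 bins was at most 2.3e-04 (exact conditional test). At 50 to 100 kb the densities were 10.3 and 10.9 (ratio 0.944, CI 0.787 to 1.13) and beyond 100 kb they were 7.21 and 7.49 (ratio 0.963, CI 0.756 to 1.21). The common ratio over the 7 bins was 1.28. The bins were added after the data were seen. The composite share was 10.5% in first and 10.1% in later introns (odds ratio 1.04, p = 0.616, Fisher's exact test).

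At a given distance from a start, introns held fewer OCT4 peaks than intergenic sequence, except far from any start. At 1 to 2.5 kb there were 16.1 members per Mb (CI 15 to 17.2) and 20.2 intergenic peaks per Mb (CI 18 to 22.5). At 10 to 25 kb these were 14.5 and 17.6, and at 50 to 100 kb 10.7 and 12.3. The ratio of members to intergenic peaks ranged from 0.734 to 0.871 in the 6 bins up to 100 kb, with an adjusted p of at most 0.00173 (exact conditional test over 7 bins). Beyond 100 kb the order turned, with 7.40 members per Mb (CI 6.87 to 7.97) and 5.92 intergenic peaks per Mb (CI 5.69 to 6.16), a ratio of 1.25 (CI 1.15 to 1.36, adjusted p = 5.9e-07, exact conditional test). The 705 members beyond 100 kb also had the highest composite share of the 7 bins, 13.2% (CI 10.9 to 15.9%), against 10.0% of the 7148 members nearer to a start (odds ratio 1.37, p = 0.00932, Fisher's exact test, a comparison chosen after the shares were seen). How far read mapping and gene density differ between introns and intergenic sequence was not tested.

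**Figure D4:**
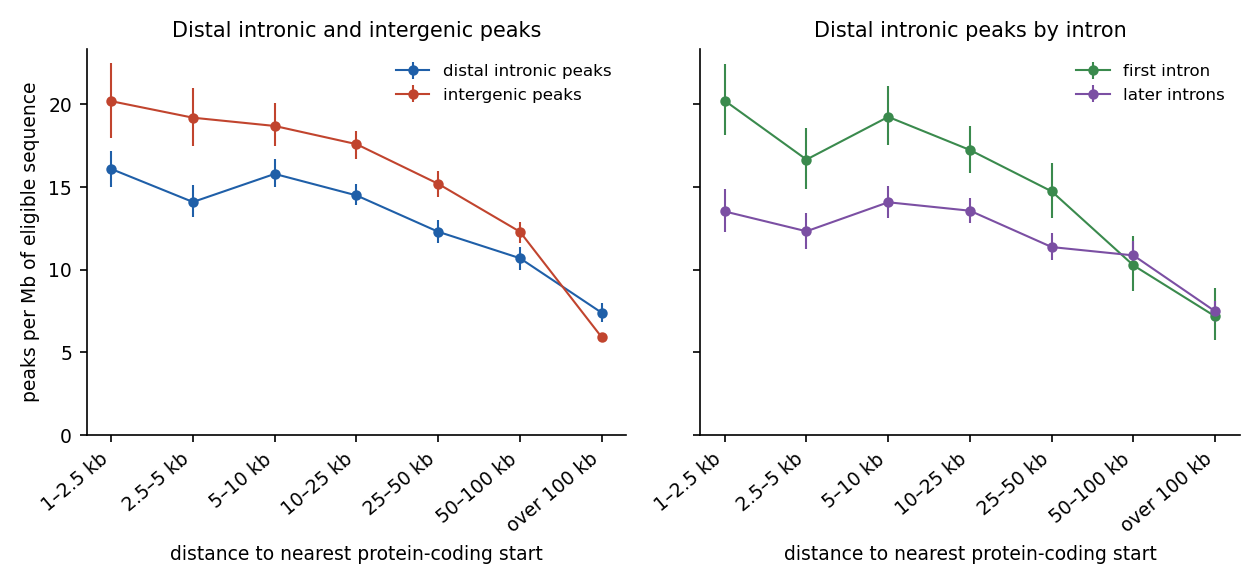
OCT4 peaks per Mb of eligible sequence against distance to the nearest protein-coding start, for distal intronic and intergenic peaks (left) and for distal intronic peaks in first and later introns (right). Points are densities and bars are exact 95% Poisson intervals, and the 2 lines on the left cross beyond 100 kb, where members reach 7.40 and intergenic peaks 5.92 per Mb.

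Members lie inside their host gene by rule, and the nearest protein-coding start belonged to it for 90.7% of them (CI 90.0 to 91.3%). For the other 734 members (9.35%) a start of another gene was nearer, which was the case for 4.33% of members in first introns and 11.4% of those in later introns. The nearest start does not show which gene a site acts on. Members lay a median of 3540 bp from the nearest exon edge, and 969 (12.3%) lay within 500 bp of one. Shares for flanking windows or for all eligible sequence were not computed, so these values describe the members only.

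Members were sparse on chromosome X. Its eligible introns held 133 members, or 5.30 per Mb (CI 4.44 to 6.28), while the 19 autosomes ranged from 10.9 on chromosome 3 to 16.5 on chromosome 11, with a mean of 13.2 ± 1.33 per Mb (SD over autosomes, n = 19). The ratio of X to autosomes was 0.403 (CI 0.337 to 0.478, exact conditional test p = 1.1e-33). The number of X copies in these cells and its part in this value were not tested.

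Members lay in 3992 of the 19154 protein-coding genes with eligible intron sequence, which is 20.8% of them, at an average of 12.8 per Mb of that sequence. Of these hosts 2415 held 1 member, 745 held 2 and 832 held 3 or more, with 10 or more in 44 genes. Members that shared their host with another made up 69.2% of all, and 23.6% had another member within 10 kb. The shares that gene length alone would give were not computed. Hosts were long genes, with a median length of 79.6 kb against 16.3 kb for the others. The share of genes that hosted a member rose with length, from 1.70% of genes under 10 kb to 84.2% of genes over 500 kb. The density did not rise in step: it was 10.5 per Mb in genes under 10 kb, highest at 15.8 per Mb (CI 15 to 16.6) in genes of 50 to 100 kb, and lowest at 8.29 per Mb (CI 7.80 to 8.80) in genes over 500 kb.

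The genes with the most members were long. Auts2, a gene linked to neurodevelopment whose product joins Polycomb complexes, held 21 over 1106 kb (chr5:131437333-132543344), and 4 of them carried a composite site. Its 9 members in introns of the principal transcript lay at 20.8 to 167 kb from that transcript's start, and the other 12 lay upstream of it, inside longer transcripts. Fgfr2, an FGF receptor, held 19, of which only 4 lay in introns of the principal transcript, because the annotated gene spans 2961 kb. Etl4 held 16 and Rbfox1, a neuronal splicing regulator, 16. Asic2, an acid-sensing ion channel, held 15 and was named first by alphabet of 6 genes with that number. Density in these 5 genes ranged from 13.4 to 29.6 per Mb, in genes chosen for having the most members. The intervals of Fgfr2 (12 to 31.1), Rbfox1 (7.68 to 21.8) and Asic2 (10.2 to 30) included the 12.8 per Mb of all genes.

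Among genes with at least 3 members, the densest per gene length was Il3ra, the interleukin-3 receptor alpha chain, with 4 members in 9.74 kb (chr14:14346275-14356011). All 4 carried a composite site within 3 mismatches and an octamer. Its widest member, chr14:14352610-14354507 in intron 9, was 1898 bp wide and held 31 octamers, all of them on the minus strand. The other 3 held 4, 4 and 5. Of all 7853 members, 6994 held no octamer over their whole width, 785 held 1, 61 held 2 and 13 held 3 or more. The only members outside Il3ra with at least 4 were 1 in Tenm2 with 5 and 1 in Tnfrsf8 with 4. The stretch of the Il3ra member with the most octamers is shown because no other member had such an array, and it was chosen after the counts were seen. It is written along the plus strand of chr14:14354269-14354468, with the 6 octamers, which read ATGCAAAT on this strand, in capitals.
Il3ra intron 9: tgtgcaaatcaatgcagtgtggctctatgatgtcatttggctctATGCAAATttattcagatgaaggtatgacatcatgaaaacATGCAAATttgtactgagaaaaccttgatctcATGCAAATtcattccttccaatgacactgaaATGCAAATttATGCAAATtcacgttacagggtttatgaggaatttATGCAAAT
Over the whole member the median step from 1 octamer to the next was 42.5 bp. Only 1.16% of its bases were repeat-masked, and all of its 31-base words were found at a single place in the genome. None of the 4 Il3ra members passed the weight matrix for the composite site.

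The other dense hosts carried no composite site within 3 mismatches, and 1 Sall3 member passed the weight matrix. Trim63, a muscle ubiquitin ligase, held 3 narrow members of 203 to 266 bp in introns 7 and 8. E330021D16Rik held 3 in intron 1, of which 1 had more than 50% of its 31-base words at more than 1 place in the genome. Sall3, a zinc finger transcription factor, held 4 in intron 1, and Adrb3, the beta-3 adrenergic receptor, held 4 in an intron of another transcript, 5.13 to 12.2 kb upstream of the principal start. Over all members, 56 (0.713%) had such multi-copy sequence.

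**Figure D5:**
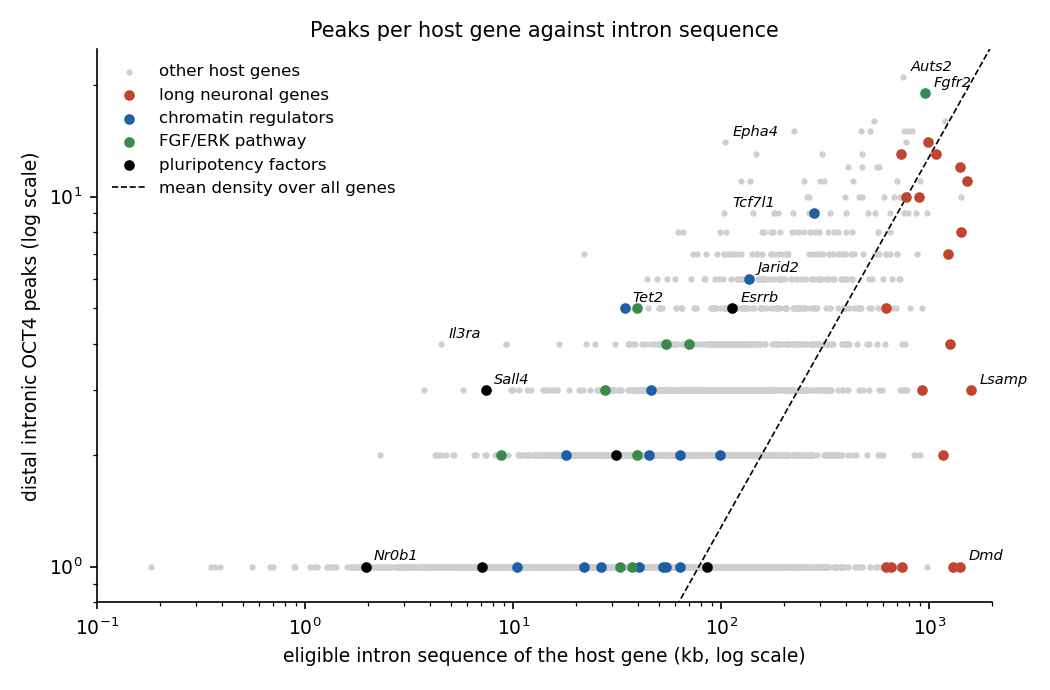
Distal intronic OCT4 peaks per host gene against the eligible intron sequence of the gene (kb), both on log scales. Each point is 1 of 3992 host genes, coloured by gene list, and the dashed line is the mean density of 12.8 per Mb. Il3ra, Sall4 and Tet2 lie far to the left of the line, and most genes of the list labelled long neuronal lie to its right.

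Pluripotency factors hosted 13 members. Of 28 such genes 23 had eligible introns and 6 of these were hosts (26.1%, against 20.8% of all genes). The median length of the list was 12.8 kb, and of all genes of 10 to 25 kb 8.4% were hosts. Over the 23 genes the density was 34.6 per Mb (CI 18.4 to 59.1), against 12.8 over all genes and 13.9 over all genes of 10 to 25 kb. The median number of members per gene was 0, as it was over all genes. The 6 hosts were Esrrb, an orphan nuclear receptor that is itself part of the network, with 5 members, Sall4, a zinc finger factor, with 3, Tfcp2l1, a LIF-responsive factor, with 2, and Nr5a2 and Nr0b1, both orphan nuclear receptors, and Trim28, a corepressor of retroelements, with 1 each. In Esrrb the members lay in intron 1 (chr12:86454941-86455460), intron 2 (chr12:86478875-86479187), intron 3 (chr12:86498789-86499138 and chr12:86501571-86502181) and intron 5 (chr12:86508373-86508790), at 33.6 to 86.9 kb from the principal start. In Sall4 all 3 lay in intron 1, 4.46 to 5.95 kb from the principal start, between chr2:168761094 and chr2:168762903. In Tfcp2l1 both lay in intron 2, chr1:118642423-118643077 and chr1:118647979-118648403. The Nr5a2 member lay in intron 7 (chr1:136879655-136879897), the Nr0b1 member in its single intron (chrX:86193540-86193847), and the Trim28 member 9.69 kb upstream of the principal start, in an intron of another transcript (chr7:13014176-13014749).

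None of these 13 members held a composite site within 3 mismatches, a number too small to set against the 10.3% of all members. The fewest mismatches were 4, in 2 members of Esrrb and 1 of Tfcp2l1. The weight matrix passed 3 of the 13 (23.1%, against 17.9% of all members), in Esrrb, Tfcp2l1 and Trim28. An exact octamer lay in 2 Esrrb members and a SOX core in the Nr0b1 member. The central 200 bp of the 2 members of the list with the fewest mismatches nearest to the midpoint are written below along the plus strand, with the best window of 15 bases in capitals, followed by the 3 other members with 4 mismatches or a matrix match, written along the strand of the window.
Esrrb intron 5, chr12:86508482-86508681: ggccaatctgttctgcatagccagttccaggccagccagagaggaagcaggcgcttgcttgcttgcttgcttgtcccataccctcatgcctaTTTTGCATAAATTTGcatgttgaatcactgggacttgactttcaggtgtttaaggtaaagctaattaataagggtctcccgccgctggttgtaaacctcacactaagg
Tfcp2l1 intron 2, chr1:118648091-118648290: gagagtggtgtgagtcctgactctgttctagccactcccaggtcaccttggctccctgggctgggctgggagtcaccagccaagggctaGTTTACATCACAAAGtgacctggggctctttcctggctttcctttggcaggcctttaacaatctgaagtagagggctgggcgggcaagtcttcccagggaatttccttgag
Esrrb intron 2: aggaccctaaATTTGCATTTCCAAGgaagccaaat
Esrrb intron 3: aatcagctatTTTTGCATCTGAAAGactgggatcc
Trim28: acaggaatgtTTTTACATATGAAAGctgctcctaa
The Esrrb intron 5 window runs into a second, exact octamer, while the intron 2 window begins with one. A window with at most 4 mismatches was also present in 7.54% of flanking windows.

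Chromatin regulators hosted 38 members. Of 25 genes, all with eligible introns, 15 were hosts (60%), against 20.8% of all genes and 39.6% of all genes of 50 to 100 kb, the class that holds the median length of this list (65.2 kb). The density was 33.4 per Mb (CI 23.6 to 45.8), against 15.8 in all genes of that length class. Arid1b, a BAF complex subunit, held 9, Jarid2, a Polycomb cofactor, 6, and Tet2 and Tet1, which oxidise methylcytosine, 5 and 3. Of the 6 Jarid2 members 4 lay in intron 1 and 3 passed the weight matrix, and of the 5 Tet2 members 4 lay in intron 1. One Jarid2 member was multi-copy. A composite site lay in 2 of the 38 members (5.26%, against 10.3% of all members), 1 in Arid1b and 1 in Smarca4, which encodes BRG1. The weight matrix passed 5 of the 38 (13.2%, against 17.9% of all members). These counts are too small to compare.

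Genes of the signalling lists hosted members as well. Their host shares stand against 20.8% of all genes and 39.6% of genes of 50 to 100 kb, the class that holds the median length of the FGF/ERK (62.1 kb), WNT/TCF (78.1 kb) and LIF/STAT3 (57.7 kb) lists, while that of the TGF-beta/BMP list was 36.1 kb. In the FGF/ERK list 9 of 14 genes with eligible introns (64.3%) hosted 41 members at 30.2 per Mb (CI 21.7 to 40.9). Fgfr2 held 19 of them, 15 outside introns of its principal transcript, and 953 kb of the list's 1.36 Mb of eligible sequence. Its own density was 19.9 per Mb. After Fgfr2 came Etv5, an ERK-responsive transcription factor, with 5. Sos1, a RAS activator, and Spred2, a RAS pathway inhibitor, held 4 each. Of the 5 Etv5 members 4 held a SOX core, which 21.2% of all members held. In the other listed hosts with 5 members, 0 to 2 of the 5 held one. In the WNT/TCF list 6 of 13 genes (46.2%) hosted 20 members at 25.9 per Mb (CI 15.8 to 40). Tcf7l1, a repressor of WNT targets in ES cells, held 9, all in intron 3, spread from 1.72 to 133 kb from the principal start. Tcf7l2 held 5, Lef1 held 3, and Gsk3b, the kinase that CHIR99021 inhibits, held 1, as did Lrp5 and Lrp6. Composite sites lay in 1 Tcf7l1 and 1 Lef1 member. In the LIF/STAT3 list 4 of 9 genes (44.4%) hosted 9 members at 24.9 per Mb (CI 11.4 to 47.3), 4 of them in intron 1 of the adaptor gene Gab1, 2 in the kinase gene Jak2, 2 in Lifr, the LIF receptor, and 1 in the kinase gene Pim1. A composite site lay in 1 member each of Jak2 and Lifr. In the TGF-beta/BMP list 4 of 17 genes (23.5%) hosted 5 members at 10.1 per Mb (CI 3.29 to 23.7), 2 of them in Acvr1b and 1 each in Acvr2a, Bmpr1a and Smad3.

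Host shares in the lineage and control lists were near the 20.8% of all genes. They were above those of the length class that holds each list's median. The median length was 8 kb in the differentiation list and 18.6 kb in the housekeeping list. Of all genes under 10 kb 1.70% were hosts, and of those of 10 to 25 kb 8.4%. The differentiation hosts themselves were 6.47 to 95.9 kb long and the housekeeping hosts 26.2 to 46.2 kb. Of all genes of 25 to 50 kb 21.5% were hosts. Each of these lists had 3 hosts, and an excess over genes matched for length was not tested. Of 17 differentiation genes with eligible introns 3 were hosts (17.6%), at 27.9 per Mb (CI 10.2 to 60.7), with 4 members in Pax3, a neural crest and muscle factor, 1 in Cdx2, the trophectoderm factor, and 1 in Fgf5, an epiblast growth factor. The Cdx2 member, in intron 1 at chr5:147304173-147305191, was 1019 bp wide. Of 15 housekeeping genes 3 were hosts (20%), with 2 members in Rab7 and 1 each in Tbp and Ywhaz, at 26.9 per Mb (CI 7.33 to 68.9). The intervals of the pluripotency, FGF/ERK, WNT/TCF and chromatin lists lay above the 12.8 per Mb of all genes, while those of the LIF/STAT3, TGF-beta/BMP, differentiation and housekeeping lists included it. In all genes of 50 to 100 kb, the class that holds the FGF/ERK, WNT/TCF and chromatin medians, the density was 15.8 per Mb. The lower limit of the WNT/TCF interval was also 15.8. The list densities were not tested against each other.

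The list labelled long neuronal genes had many hosts and few members per Mb. It also holds Fhit, Macrod2 and Dmd, which are not specific to neurons. Of its 20 genes 19 (95%) were hosts, against 84.2% of all genes over 500 kb. They held 120 members at 5.67 per Mb (CI 4.70 to 6.77), below the 8.29 per Mb of all genes over 500 kb. The median length of the list was 1545 kb, and the part of gene length in these values was not tested. Magi2, a synaptic scaffold, held 14 in 1478 kb, Fhit held 13 and Macrod2 held 12. At the other end Dmd, which encodes dystrophin, held 1 in 2257 kb on chromosome X and Lrp1b 1 in 2058 kb. A composite site lay in 20 of the 120 (16.7%), against 12.8% (CI 10.9 to 14.9%) of members in genes over 500 kb and 10.3% of all members, given as a description of a list whose members share few hosts.

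Genes that hosted a member more often had an OCT4 peak at their own start as well. A peak lay within 1 kb of a start in 1024 of 3992 hosts (25.7%, CI 24.3 to 27%) and in 2343 of the 15162 other genes with eligible introns (15.5%, CI 14.9 to 16.0%). The odds ratio was 1.89 (CI 1.74 to 2.05, Fisher's exact test p = 1.0e-47), and 1.42 over quintiles of gene length. By quintile the ratio was 1.39, 1.05, 1.12, 1.2 and 1.84 from the shortest to the longest genes. Most of the hosts, 2245, lay in the longest quintile, where 29.3% of hosts and 18.4% of other genes had a promoter peak. The part of the number of starts per gene in this difference was not tested.

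The 3 widest members were 1949 bp in intron 4 of Sfi1 (chr11:3184319-3186267), the Il3ra member above, and 1896 bp in intron 1 of St6galnac1 (chr11:116773161-116775056). The Sfi1 and St6galnac1 members came no closer to the composite than 5 mismatches over their whole width. At the limits of the rule, 195 members were 45 to 50% repeat-masked and 157 peaks just beyond were 50 to 55%, with composite sites in 13.3% and 8.28%. Likewise 87 members lay 1.0 to 1.1 kb from a start and 98 intronic peaks 0.9 to 1.0 kb, with composite sites in 11.5% and 8.16%.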

How the data were processed

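STAR 2.6.1c (alignment to mm10), Picard (duplicate removal), MACS 2.1.1.20160309 in its paired-end setting and BEDTools (merging) were used by the authors, and reads outside the autosomes and sex chromosomes were discarded. The deposited values are positions in base pairs, and how the merge was made for this list is not given in the sources used here. The paper describes removing very wide peaks and peaks that overlap input peaks or blacklisted regions. The list used here still holds a peak of 38168 bp near a start, so that width limit was not applied to it. Overlap of the members, the widest among them, with input peaks or blacklisted regions was not tested. No column belongs to a library, so library depth is unknown, and the BRG1 and H3K27ac libraries were not analysed here.

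Peaks were placed on GENCODE M21 and the GRCm38 sequence, whose lower-case bases were taken as repeat-masked. The host was the innermost protein-coding gene, and introns were numbered on its principal transcript. Of 15706 flanking windows placed, 10699 lay in eligible introns, under 50% repeat-masked and clear of peaks, unknown bases and each other. Fisher's exact test (two-sided) compared shares of regions, and the exact conditional test of 2 Poisson counts compared densities, with Benjamini-Hochberg adjustment. Intervals are Wilson for shares and exact Poisson for densities. GC strata were 4 percentage points wide (Mantel-Haenszel). Methods were tested on simulated data. Python 3.11.15, NumPy 2.4.6, SciPy 1.17.1, statsmodels 0.14.6 and matplotlib 3.10.9 were used.

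The members and the gene lists were chosen with earlier results of these data known. By rule, the text names the 5 hosts with the most members, the 5 densest hosts with at least 3, every pluripotency-list host, the 4 hosts with most members of each other list, the 8 closest composite sites, the 3 widest members, and 6-mers called and present in at least 1% of either class. Of the pluripotency-list windows, only those with 4 mismatches or a matrix match are printed, a limit set after the values were seen. Smarca4, Lrp5, Lrp6, Dmd, Lrp1b, Tenm2, Tnfrsf8 and CGCGGA fall outside the rule and were named after their values were seen. A host gene that the rule would name is not reported here.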

Additional observations from a re-analysis of the deposited data

How the results depend on the processing

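No paired analysis was possible because the deposited positions carry no library or replicate number, which is also why no replicate could be left out. The motif odds ratios, first-intron density, strand share, member count, promoter peaks and 6-mer count were recomputed with other mismatch limits, windows, flank offsets, distances, widths, repeat limits, transcripts or GC strata, and 80 of 90 values kept their direction and their side of the threshold (for counts, lay within 1.5 times). The odds ratio of the composite site in members against flanking windows ranged from 5.33 with at most 4 mismatches to 41.4 with at most 2, and the density ratio of first to later introns from 1.28 over distance bins to 1.37 over all bases. Keeping peaks of at least 300 bp left 5129 members. Over whole peaks, 120 6-mers differed between members and intergenic peaks in place of 7, where members are also narrower in the median, and the cause was not tested. The composite in members against intergenic peaks passed the threshold with the weight matrix (odds ratio 0.915), an alternative added after the data were seen. The composite odds ratio of first against later introns turned to 0.948 with at most 4 mismatches (p = 0.348, Fisher's exact test). Other odds ratios that turned around 1 were, over whole peaks, GATA against flanks at 0.968 and ESRRB, ZIC and OTX2 against intergenic peaks at 0.917, 0.994 and 1.05, and in GC strata CTCF against flanks at 0.927. None of these passed the test in either form. The SOX core against intergenic peaks passed over whole peaks (odds ratio 0.901, adjusted p = 0.03, Fisher's exact test). A promoter peak within 2.5 kb gave an odds ratio of 3.28, but such peaks can be the members themselves. The other densities, the X ratio, gene-list values, spacing and octamer counts have no alternative setting. Without depth, a peak below the calling threshold cannot be told from an unbound intron.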
